A study of Mus musculus with 51 samples.

Results

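Wnt ligands are secreted lipid-modified proteins that bind Frizzled receptors and co-receptors of the Lrp, Ror or Ryk families. In the canonical branch this stops the destruction complex, built on the Axin scaffolds, from degrading beta-catenin, which then acts with Tcf and Lef factors on target genes. Other Wnt ligands, among them Wnt5a, are best known for signalling without beta-catenin. In the mammary gland Wnt ligands act in duct branching, in alveolar growth in pregnancy and in stem cell upkeep, and mouse mammary tumor virus was found to act by switching on Wnt genes. The genes described here are 10 members of this pathway: the ligands Wnt4, Wnt5a, Wnt5b, Wnt6, Wnt7b and Wnt10a, the target and feedback scaffold Axin2, the transcription factors Lef1 and Tcf7, and the secreted inhibitor Sfrp1. They were chosen by name, and every probe set annotated to just 1 of these symbols was taken. This gave 22 probe sets for 9 of the 10 genes, out of 45101 probe sets and 18192 genes with a probe set of a single symbol. Tcf7 had no such probe set in the annotation used and has no value here. All 9 genes passed the filter on low values.

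RNA was measured on 51 Affymetrix MOE430.2 arrays from mice in which Wap-Cre, a Cre driven by a milk protein promoter, turns on a conditional knock-in allele of the fusion oncogene Etv6-NTRK3 in mammary epithelium. A floxed lacZ reporter at Rosa26 (Rosa-Stop-lacZ) marks the recombined cells. Sorted lacZ+ cells came from hyperplastic glands (4 mice), from primary tumors (8 tumors of 6 mice) and from tumors passaged in RAG2-/- recipients, which have no mature B or T cells (7 tumors of 5 mice of origin, passages 1 to 4). Whole tissue, not sorted, was taken from primary tumors (22 tumors of 14 mice, 1 of them on 2 arrays that were averaged), from transplanted tumors in RAG2-/- recipients (4 tumors of 2 mice of origin) and from mammary glands of normal mice (5 mice). The Cre, the knock-in allele and the reporter belong to every hyperplasia and tumor group and not to the gland group. No age, parity or hormonal stage was given, and the gland was measured unsorted.

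Levels are log2 intensities with a floor at 5, so a value of 5.00 means at or below the floor. Differences come from 1 fit over all groups with mouse as a random block, and "called" means an adjusted p under 0.05 over 15150 genes. Array medians lay between 42.9 and 57.8 intensity units, and the small number of arrays in some groups limits precision. Gland replicate 4 had the largest ratio of 3′ to 5′ signal for Actb, 2.18 on the log2 scale. The spike-in signal of BioB and BioC reached 12.39 in the hyperplasia group against at most 10.28 in any other group. Marker lists are given as the mean log2 level of their genes. The luminal epithelial list was between 10.09 and 11.90 in every sample of every group. The fibroblast list had a median of 10.85 in gland, 10.58 in sorted hyperplasia and 7.07 in unsorted tumors. The macrophage list had a median of 9.85 in sorted hyperplasia against 8.10 in sorted tumors. In bulk samples such as these, fewer cells of a type and less RNA per cell cannot be told apart.

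Promoter sequences are shown for Wnt4, the member with the firmest difference, for Axin2, the canonical target, and for Wnt5b, whose probe sets disagreed. They are the 250 bases before an annotated start, 5′ to 3′ on the strand of the gene, from RefSeq on GRCm38.p6. RefSeq gave 12 promoters for 6 of the 10 genes (Wnt4, Wnt5b, Wnt6, Axin2, Lef1 and Tcf7). Capitals mark a core motif of Tcf and Lef factors, searched as CTTTGAT and as the variant spellings CTTTGTT, also CTTTGAA, and lastly CTTTGTA, on both strands; these spellings do not overlap one another in a single site. The Wnt4 window is chr4:137277385-137277634 on the plus strand, the Axin2 window chr11:108920099-108920348 on the plus strand, and the Wnt5b windows are chr6:119544348-119544597 and chr6:119449387-119449636, both on the minus strand.
Wnt4: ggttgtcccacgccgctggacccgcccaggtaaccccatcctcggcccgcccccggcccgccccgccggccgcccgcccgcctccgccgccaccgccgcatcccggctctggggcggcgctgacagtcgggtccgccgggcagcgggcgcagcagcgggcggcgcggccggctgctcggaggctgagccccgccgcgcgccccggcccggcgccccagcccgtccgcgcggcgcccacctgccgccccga
Axin2: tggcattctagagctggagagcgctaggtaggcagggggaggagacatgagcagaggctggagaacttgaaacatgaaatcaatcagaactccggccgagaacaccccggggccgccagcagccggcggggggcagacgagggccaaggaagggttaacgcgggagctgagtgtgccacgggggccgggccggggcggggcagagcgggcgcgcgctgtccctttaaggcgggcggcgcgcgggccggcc
Wnt5b, most upstream start: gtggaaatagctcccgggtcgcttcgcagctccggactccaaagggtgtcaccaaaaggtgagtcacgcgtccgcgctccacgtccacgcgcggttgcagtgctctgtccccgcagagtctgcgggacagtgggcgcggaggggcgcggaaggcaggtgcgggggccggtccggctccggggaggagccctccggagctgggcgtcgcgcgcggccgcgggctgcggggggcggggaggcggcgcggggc
Wnt5b, most downstream start: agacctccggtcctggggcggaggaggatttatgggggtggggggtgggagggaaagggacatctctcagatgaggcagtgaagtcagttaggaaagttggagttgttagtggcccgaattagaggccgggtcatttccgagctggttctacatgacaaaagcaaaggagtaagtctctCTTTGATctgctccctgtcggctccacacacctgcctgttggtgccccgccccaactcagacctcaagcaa
The most downstream of the Wnt5b starts had CTTTGAT at -71 to -65 from the start. Of the Lef1 starts, 1 of 4 had CTTTGTA, on the opposite strand at -147 to -141. In all, 2 of the 12 promoters (16.7%) held a match in the 300 bases around the start, against 16.9% of 32851 RefSeq promoters of the same length. The Axin2 and Wnt4 windows held none, which says only that these letters are not in these windows. The promoters of these members were rich in G and C, with a median of 67.3% against 52.7% over all.

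**Figure D1:**
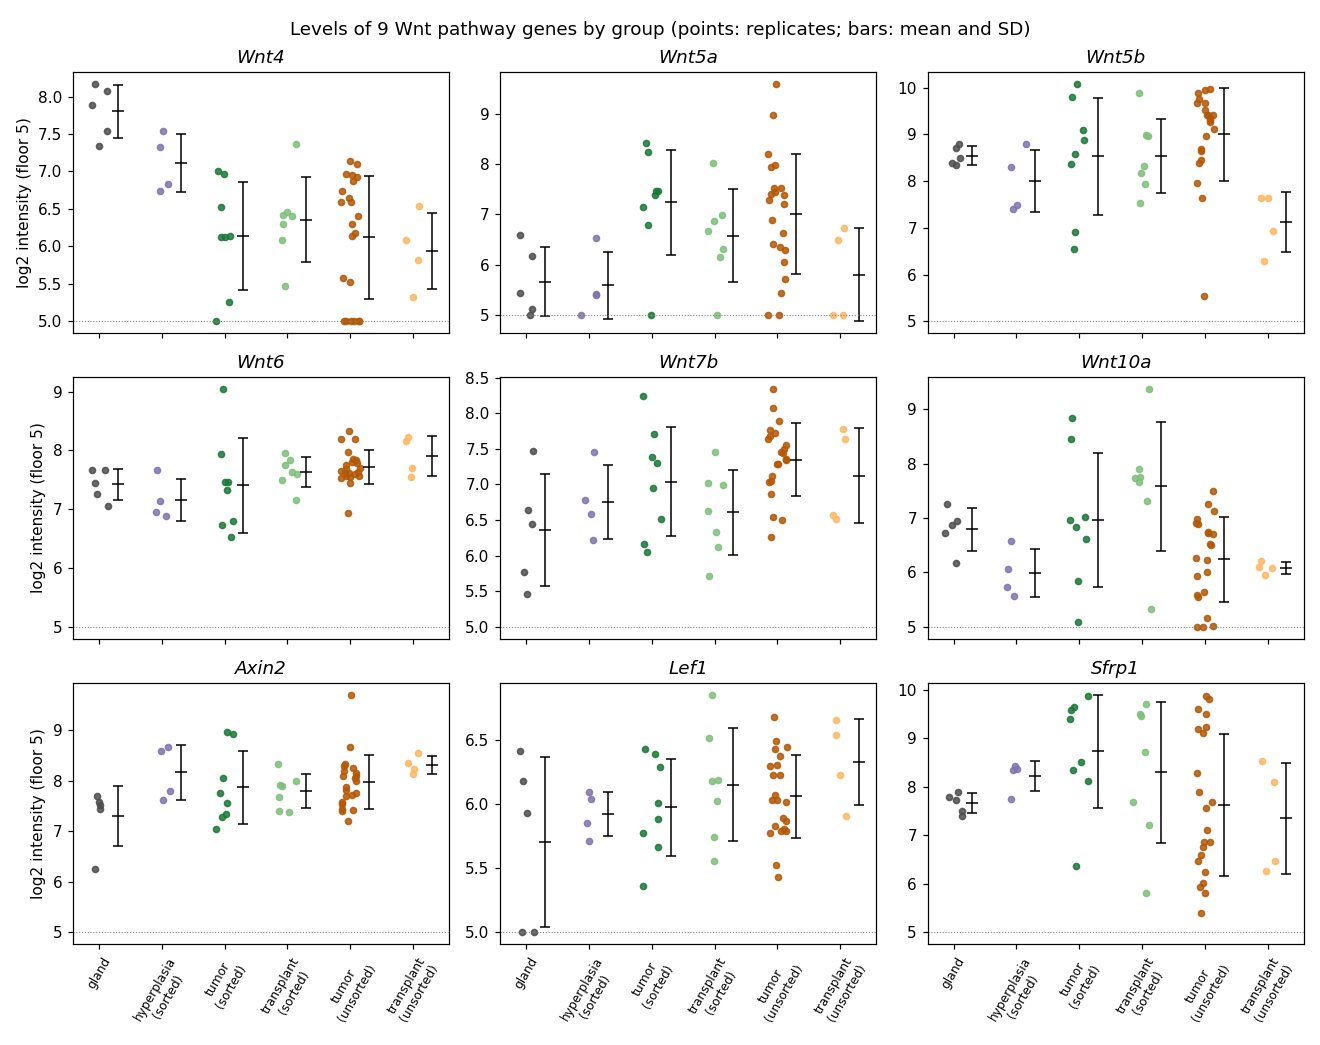
Log2 intensity (y axis, floor 5 as a dotted line) of the 9 measured genes in the 6 groups (x axis). Points are replicates, and the bars give the mean and SD of a group. Wnt4 lay above 7.3 in all 5 glands and below 7.2 in all 22 unsorted tumors, while most other members overlapped between all groups.

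Unsorted primary tumors were first compared with normal gland, the comparison of established tumor with normal tissue. Wnt4 fell, and Wnt5a and Wnt7b rose. Wnt5b, Wnt6, Wnt10a, Axin2, Lef1 and Sfrp1 were not called on their brightest probe set. So 3 of 9 genes were called, 2 higher and 1 lower, in a comparison in which 51% of all genes were called, 29.4% higher and 21.5% lower. The median difference of the 9 genes was 0.34 on the log2 scale, against 0.10 over all genes. The share of members called was thus below that of all genes, and the sizes rather than the count describe this family.

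Wnt4 is the ligand induced by progesterone in hormone-sensing luminal cells and needed for side branching. Its log2 level in the 5 glands was 8.08, 8.17, 7.88, 7.34 and 7.54. In the 22 unsorted tumors it ran from 5.00 through a median of 6.35 to 7.13, with 6 tumors at the floor. Every tumor lay below the lowest gland. The share of all genes with no overlap between tumors and glands was not counted, here or for the genes below. The fitted log2 difference was -1.62 ± 0.33 (SE; 95% interval -2.28 to -0.95; adjusted p = 7.36e-05), a 3.06-fold lower intensity. The group means were 6.12 ± 0.82 (SD, n = 22) and 7.80 ± 0.35 (SD, n = 5). A second Wnt4 probe set gave -1.37 ± 0.32 (SE, adjusted p = 0.000443). Wnt4 stayed called under each of 13 alternative settings, with differences from -1.80 to -1.05.

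The other groups placed Wnt4 in an order. Sorted hyperplasia followed the gland, with log2 levels of 7.32, 6.74, 7.54 and 6.84 (7.11 ± 0.38, SD, n = 4). Sorted transplants (6.36 ± 0.57, SD, n = 7), sorted tumors (6.14 ± 0.72, SD, n = 8), unsorted tumors and unsorted transplants (5.94 ± 0.51, SD, n = 4) came lower. These levels are from the brighter probe set. On it, the steps from gland to hyperplasia and from hyperplasia to sorted transplants were larger than the larger SD of the 2 groups. The steps among the 4 tumor groups were not. The second probe set read 7.16 ± 0.69 (SD, n = 5) in gland and 6.36 ± 1.05 (SD, n = 4) in hyperplasia. Sorted tumors came next on it, at 5.84 ± 0.77 (SD, n = 8), and neither step exceeded the larger SD. Its sorted transplants, at 5.53, lay below both primary tumor groups. The gland was unsorted normal tissue and the hyperplasia sorted cells, so that step also spans the sort. Sorted tumors lay below the mean of hyperplasia in 8 of 8 cases and below its lowest value in 6, yet the fitted difference of -0.86 ± 0.41 (SE; 95% interval -1.69 to -0.04) was not called (adjusted p = 0.259).

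The hormone-sensing luminal list was also lower in unsorted tumors than in gland. All 5 measured genes of this list (Pgr, Esr1, Cited1, Foxa1 and Tnfsf11) were called lower there, as were 21.5% of all genes. Prlr and Areg had no probe set here. Pgr, Esr1, Cited1 and Tnfsf11 also had lower means in sorted tumors than in gland. Foxa1 did not, with 8.93 in sorted tumors and 8.69 in sorted hyperplasia against 8.65 in gland. The mean log2 level of the list was 6.58 to 8.20 in gland, 6.43 to 7.20 in sorted hyperplasia, 5.91 to 6.98 in sorted tumors and 5.42 to 6.60 in unsorted tumors. Pgr, the progesterone receptor, had a mean log2 level of 8.54 ± 0.50 (SD, n = 5) in gland and 6.16 ± 0.51 (SD, n = 22) in unsorted tumors. Cited1 and Tnfsf11, which encodes the paracrine factor RANKL, were at the floor in all 22 unsorted and all 8 sorted tumors. The part of hormone-sensing cells in the Wnt4 difference was not tested.

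Wnt5a signals mainly without beta-catenin, through receptors such as Ror2. Its log2 level was 6.16, 6.59, 5.11, 5.00 and 5.44 in the 5 glands, so near the floor. In unsorted tumors it spanned 5.00 to 9.60 with a median of 7.24, and 14 of 22 tumors exceeded the highest gland. The fitted difference was 1.25 ± 0.53 (SE; 95% interval 0.18 to 2.31; adjusted p = 0.0459), a 2.37-fold higher intensity. This call was thin: it was lost in 7 of 13 alternative settings, where the adjusted p reached 0.153. Losing any 1 of gland replicates 3, 4 or 5 ended it, with adjusted p of 0.117, 0.129 and 0.0941. A second bright probe set gave a like difference of 1.34 ± 0.58 (SE, adjusted p = 0.0518), and the other probe sets gave 0.86 and 0.21.

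Wnt5b, the close relative of Wnt5a, showed a disagreement between its probe sets. The brighter one is of the _x_at type, which can also bind related transcripts. It read 8.49, 8.79, 8.72, 8.38 and 8.35 in the glands and 5.54 to 9.97 in unsorted tumors (median 9.33). Its difference was 0.55 ± 0.49 (SE; 95% interval -0.43 to 1.54; adjusted p = 0.359). The dimmer one read 5.82 ± 0.48 (SD, n = 5) in gland and 7.71 ± 0.91 (SD, n = 22) in tumors, and its difference of 1.93 ± 0.51 (SE) was called (adjusted p = 0.00151, over 27537 probe sets, 48.7% of them called). The mean of both gave 1.24 (adjusted p = 0.0308). The estimate was positive on both probe sets, and the call depended on which was used.

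**Figure D2:**
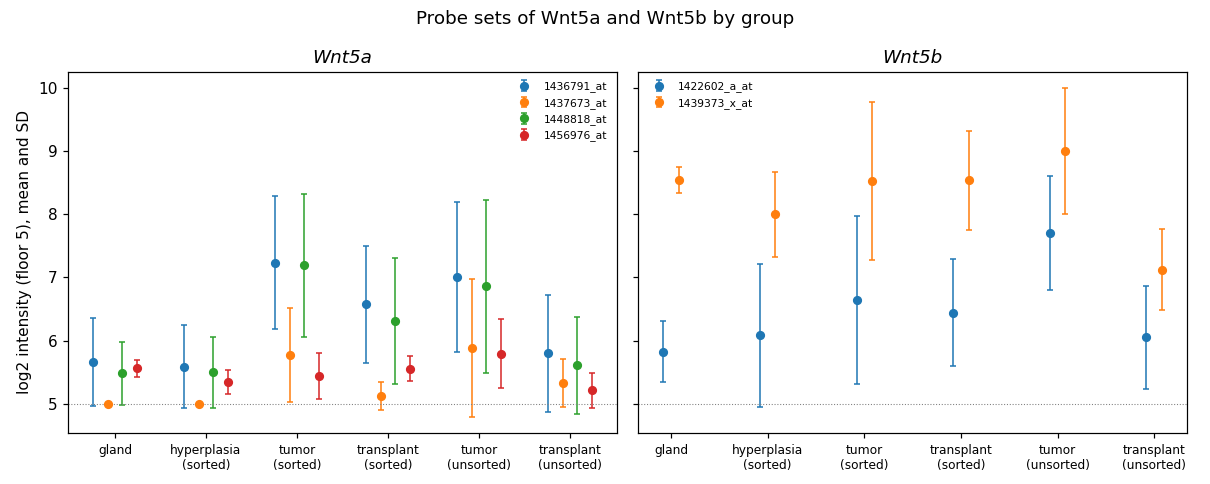
Mean and SD of log2 intensity (y axis) in the 6 groups (x axis) for each probe set of Wnt5a (left) and Wnt5b (right). The brighter Wnt5b probe set lay between 8.35 and 8.79 in the glands, and the dimmer one had a mean of 5.82 in gland and 7.71 in unsorted tumors.

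Wnt7b, a ligand made by ductal and lung epithelium, had log2 levels of 6.44, 7.47, 6.64, 5.47 and 5.77 in the glands. Unsorted tumors ran from 6.25 to 8.34 with a median of 7.39, and 21 of 22 lay above the gland mean. The difference of 0.95 ± 0.31 (SE; 95% interval 0.33 to 1.58) was called (adjusted p = 0.00877). It was not called with a floor of 100 (adjusted p = 0.0781), on the mean of its probe sets (0.0644) or without gland replicate 4, the array with the large Actb ratio (0.73, adjusted p = 0.0679). The dimmer Wnt7b probe set gave 0.14 ± 0.25 (SE, adjusted p = 0.671).

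Wnt6 and Wnt10a are neighbours on chromosome 1, with no other gene annotated between them, and both are made by epithelia. Wnt6 had a narrow range, 7.06 to 7.68 in gland and 6.93 to 8.34 in unsorted tumors, and its difference of 0.28 ± 0.20 (SE; 95% interval -0.13 to 0.69) was not called. Wnt10a was at 6.73, 6.17, 7.25, 6.94 and 6.88 in gland and from 5.00 to 7.50 (median 6.39) in unsorted tumors. Its difference of -0.53 ± 0.45 (SE; 95% interval -1.43 to 0.37; adjusted p = 0.331) was not called either, with 16 of 22 tumors below the gland mean. The 2 neighbours thus differed in the sign of their estimates, and both intervals include 0.

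Axin2 is switched on by beta-catenin and limits the pathway by rebuilding the destruction complex, which makes it the usual readout of canonical signalling. Its log2 level was 7.57, 7.51, 7.44, 6.25 and 7.71 in the glands and 7.20 to 9.70 (median 7.94) in unsorted tumors. In 21 of 22 tumors it was above the gland mean. The difference of 0.65 ± 0.28 (SE; 95% interval 0.07 to 1.22) missed the threshold (adjusted p = 0.0536), and passed it without the mouse block (0.0282) and without gland replicate 5 (0.0470). Without gland replicate 4, the lowest, the difference was 0.39 (adjusted p = 0.304). Sorted hyperplasia read 8.67, 8.58, 7.61 and 7.80, inside the range of the sorted tumors. These values are from the brighter probe set. The dimmer one was at the floor in all 5 glands and above it in 5 of 22 unsorted tumors, with a difference of 0.14 ± 0.20 (SE, adjusted p = 0.598).

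Lef1, a partner of beta-catenin on DNA, was dim throughout. Its brighter probe set read 5.93, 6.18, 5.00, 6.41 and 5.00 in the glands and at most 6.85 in any sample. The difference of 0.34 ± 0.19 (SE, 95% interval -0.04 to 0.72, adjusted p = 0.135) was not called, and became so without gland replicate 4 (0.52, adjusted p = 0.0325). The dimmer Lef1 probe set reached 7.34 in a sorted tumor and gave 0.14 ± 0.36 (SE, adjusted p = 0.772). T cells also express Lef1, and the T cell list was between 5.01 and 5.57 in unsorted tumors and 5.10 and 6.20 in gland. Sfrp1, which binds Wnt proteins outside the cell, varied widely between tumors: 5.40 to 9.87 in unsorted tumors (median 7.33) around 7.39 to 7.90 in gland. Of the 22 tumors, 8 were above the highest gland and 11 below the lowest, and the difference was 0.01 ± 0.63 (SE; 95% interval -1.27 to 1.28). These values are from the brightest of its 5 probe sets. The others gave 0.17, 0.69, -0.17 and 0.67, and none was called. On the one with 0.69, the lowest tumor read 5.29 and the lowest gland 5.35, so the spread below the glands depended on the probe set.

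**Figure D3:**
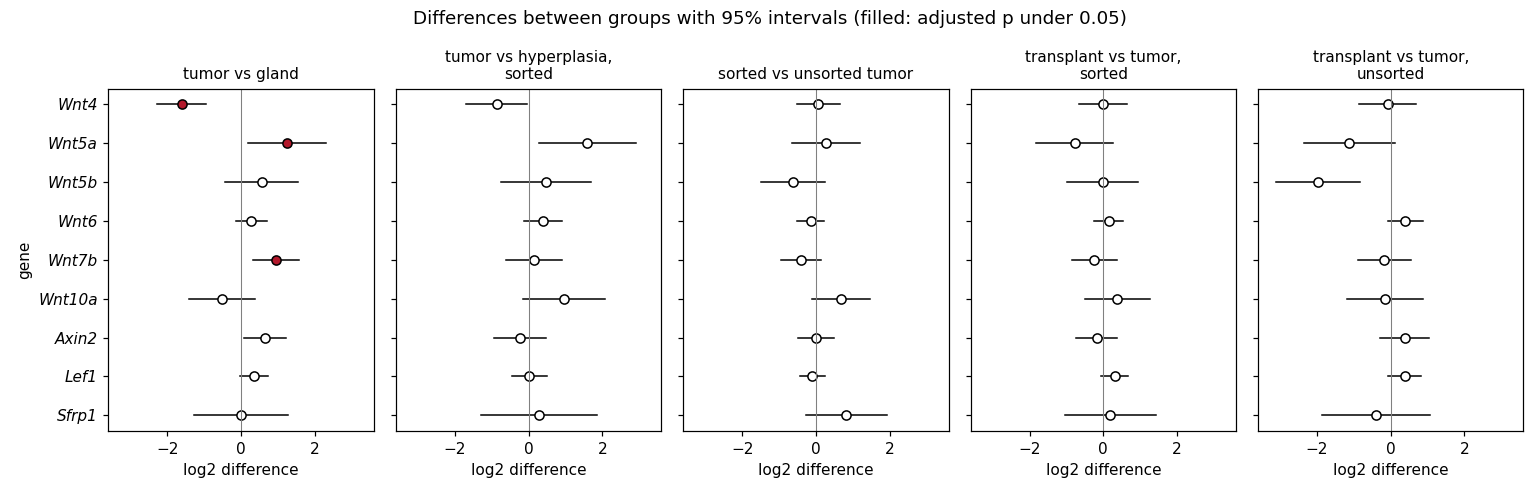
Fitted log2 differences (x axis) of the 9 genes (y axis) in 5 comparisons, one panel each, with 95% intervals. Filled points had an adjusted p under 0.05; these were Wnt4 at -1.62, Wnt5a at 1.25 and Wnt7b at 0.95 in the panel of unsorted tumor against gland.

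The step from hyperplastic to malignant cells was compared in sorted lacZ+ cells. No member was called by limma, where 3.78% of all genes were; 2 of the 9, Wnt4 and Wnt5a, had an unadjusted p under 0.05. The median difference was 0.28 over the members and 0.01 over all genes. Wnt5a read 5.42, 5.39, 5.00 and 6.53 in hyperplasia and 5.00 to 8.43 (median 7.42) in sorted tumors. It exceeded the highest hyperplasia value in 7 of 8 tumors, and its difference was 1.60 ± 0.65 (SE; 95% interval 0.28 to 2.91; adjusted p = 0.172). The other Wnt5a probe sets gave 1.76, 0.74 and 0.04, and none was called. Wnt10a read 6.57, 6.07, 5.73 and 5.57 in hyperplasia and 5.09 to 8.84 (median 6.90) in tumors, a difference of 0.96 ± 0.55 (SE, adjusted p = 0.364). Intervals for Wnt5b, Wnt6, Wnt7b, Axin2, Lef1 and Sfrp1 all included 0. Their widths ran up to that of Sfrp1, -1.29 to 1.85, so for this gene a change of 2-fold in either direction lies inside the interval.

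Sorted and unsorted primary tumors were compared next. They came from different mice, so the sort for lacZ+ cells and the mice cannot be told apart here. No gene of the 9 was called by limma on its brightest probe set, and none had an unadjusted p under 0.05, where 25.3% of all genes were called. The dimmer Wnt5b probe set was lower in sorted tumors, at -1.23 ± 0.44 (SE, adjusted p = 0.0358; 24.4% of probe sets called), with means of 6.64 ± 1.33 (SD, n = 8) and 7.71 ± 0.91 (SD, n = 22). The largest estimates on the brightest probe sets were 0.83 for Sfrp1 (95% interval -0.28 to 1.93) and 0.68 for Wnt10a (-0.09 to 1.46). Axin2 differed by 0.00 ± 0.25 (SE; 95% interval -0.50 to 0.50). Of the marker lists, 5 of 6 macrophage genes (median difference 1.44), 2 of 8 fibroblast genes (1.17) and 1 of 5 hormone-sensing genes were called higher in sorted tumors, and 2 of 6 luminal epithelial genes were called lower (median -0.30). Their part in the values above was not tested.

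Transplanted tumors were compared with primary tumors. Among sorted cells limma called none of the 9 members and 0% of all genes, with no member and 606 of 15150 genes at an unadjusted p under 0.05. Wnt5a had the largest estimate, -0.78 ± 0.52 (SE; 95% interval -1.82 to 0.26). Among unsorted tumors no member was called by limma against 0.944% of all genes, and 1, Wnt5b, had an unadjusted p under 0.05. Wnt5b read 6.93, 6.30, 7.63 and 7.64 in the 4 unsorted transplants, and 20 of the 22 primary tumors lay above all of these. Its difference was -1.98 ± 0.57 (SE; 95% interval -3.12 to -0.85; adjusted p = 0.0788), and its dimmer probe set gave -1.79 ± 0.59 (SE, adjusted p = 0.140). It was called with a floor of 100 (adjusted p = 0.0327) and without the mouse block (0.0177). The transplant effect on Wnt5b was 1.97 ± 0.75 (SE) higher in sorted than in unsorted tumors by the interaction term, which was not called (adjusted p = 0.384; 0.0858% of genes called).

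A few transplants could be set beside their own tumor of origin, as values with no test. Wnt5b was 9.42 in the unsorted tumor of mouse CR115 and 7.63 and 7.64 in its transplants. Wnt6 went the other way in this lineage, from 6.93 to 8.16 and 8.23. In sorted cells of tumor F433T4, Wnt5a was 7.46 before and 6.14 after 1 passage. Between passages 2 and 4 of tumor D279T1, Wnt10a was 9.37 and then 7.77, and Sfrp1 7.69 and then 5.80. For scale, the 2 arrays of 1 unsorted tumor differed by a median of 0.33 over the members and by at most 1.28, for Wnt5a.

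Levels varied widely over the unsorted primary tumors, and for some genes also between tumors of the same mouse. The 4 tumors of mouse C117 spanned 5.71 to 9.60 for Wnt5a, 5.54 to 9.43 for Wnt5b, 5.01 to 7.50 for Wnt10a and 7.20 to 9.70 for Axin2. Over all 22 tumors the levels ran from 5.00 to 9.60, 5.54 to 9.97, 5.00 to 7.50 and 7.20 to 9.70. In the other 5 mice with several unsorted tumors the spans were smaller, 0.24 to 1.44 for Wnt5a, 0.29 to 1.99 for Wnt5b and 0.17 to 0.59 for Axin2, each from 2 tumors. Sfrp1 spanned 3.02 in C117, 2.87 in B459 and 2.49 in C395, and 0.39 to 0.74 in D14, D206 and D254. In C117 the spans of Wnt6 and Lef1 were 0.23 and 0.27. Wnt4 was at the floor in 3 of its 4 tumors, so its span cannot be read.

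Members were then compared with one another over the 14 mice with unsorted primary tumors, after averaging the tumors of a mouse. Of 63 relations (36 pairs of members, and each member with the luminal epithelial, the basal and myoepithelial and the fibroblast list), which were chosen after levels had been seen, 4 had an adjusted permutation p under 0.05 for Pearson's r. Wnt5a and Axin2 varied together, with r = 0.916 and Spearman's rho = 0.920. The permutation p was 1e-05 for both, the smallest that 100000 permutations can give, and 0.00063 adjusted. Without the 2 mice farthest from the median of Wnt5a, r was 0.830. The single tumors gave r = 0.769 over 22, and mice without C117 gave 0.919. Every other Wnt5a probe set also gave a positive r over mice, from 0.667 to 0.876.

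The relation had exceptions. Tumor C117T1 had Wnt5a at 7.98 and the lowest Axin2 of the unsorted primary tumors, 7.20. Tumor C117T6, from the same mouse, was the highest of them for both, 9.60 and 9.70. In sorted tumors averaged over 6 mice r was 0.496 (rho = 0.543, exact permutation p = 0.350), and between 0.050 and 0.733 for the other Wnt5a probe sets. Axin2 and Wnt5a both also varied with the luminal epithelial list, at r = 0.869 (rho = 0.908, adjusted p = 0.00158) and 0.765 (rho = 0.772, adjusted p = 0.0256); without the 2 farthest mice these were 0.821 and 0.657. The mice share array processing and tumor cell content, and the part of these in the relation was not tested.

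**Figure D4:**
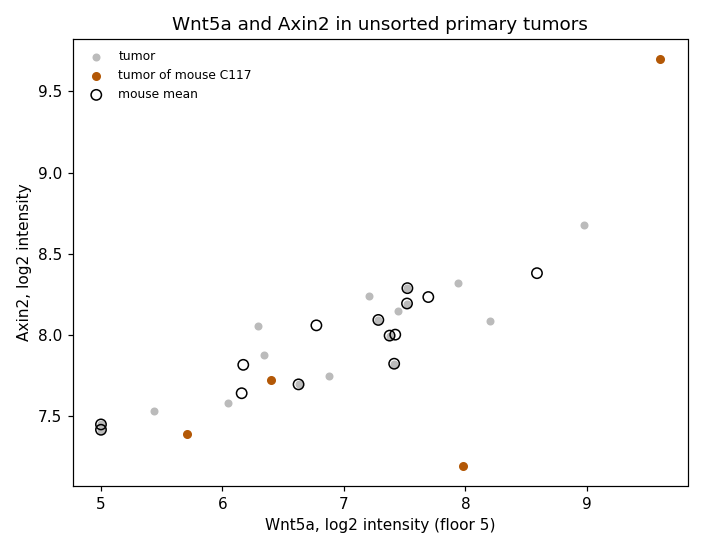
Axin2 (y axis) against Wnt5a (x axis), both as log2 intensity, in unsorted primary tumors. Small points are the 22 tumors, with those of mouse C117 in orange, and open circles are the means of the 14 mice, which gave r = 0.916; tumor C117T1, at 7.98 and 7.20, lies below the trend of the other points.

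Wnt10a varied with the basal and myoepithelial list, with r = 0.736 (rho = 0.776, adjusted permutation p = 0.0337) and 0.680 without the 2 farthest mice. Wnt6 was lower where the luminal epithelial list was higher, with rho = -0.771 (adjusted permutation p = 0.0246). By Pearson this relation gave r = -0.609 (adjusted permutation p = 0.1095), and -0.821 without the 2 farthest mice. The genes whose levels were most like those of Wnt10a over the 22 tumors were Sostdc1 (r = 0.903), a secreted inhibitor of BMP and Wnt signalling, Col17a1 (0.859), a collagen of hemidesmosomes, and Krt6a (0.856), an epithelial keratin. For Axin2 the nearest were Sox7 (0.842), a transcription factor, and Vav3 (0.803). Those for Wnt5b were Dnajc4 (0.862) and Srebf1 (0.819), the regulator of lipid synthesis. For Wnt5a the nearest was Gsta4 (0.794), for Wnt4 Sipa1l1 (0.765), for Wnt6 Prr36 (0.768), for Wnt7b Spns2 (0.798), for Lef1 Pkd1l2 (0.858) and for Sfrp1 Map4k4 (0.841). These are the highest of 15150 genes over tumors that include several of 1 mouse, and they are given as a description.

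The rest of the pathway was read from a list of 81 other genes, 71 of them measured above the filter. In unsorted tumor against gland 19 were higher and 21 lower, together 40 of 71, against 51% of all genes. Their median difference was 0.07, against 0.10 over all genes. Of 9 ligands other than the members, 6 were called lower and none higher, where 21.5% of all genes were called lower. Wnt11, a ligand of cell movements, fell by 1.32 (SE 0.25, adjusted p = 2.57e-05), with every tumor below every gland, and Wnt8a fell by 1.03. Wnt7a fell by 0.72, a call that was lost without gland replicate 5 (adjusted p = 0.146). Wnt2, a stromal ligand, was near the floor with 5.54 in gland and 5.08 in tumors. Wnt10b, a ligand known from virus-induced mammary tumors, did not enter the test.

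Among amplifiers, Rspo1, an R-spondin that binds Lgr receptors and raises Frizzled levels, fell. Its mean log2 level was 7.24 in gland, where it was above the floor in 4 of 5, and it was above the floor in 1 of 22 tumors, with a fitted difference of -2.24 ± 0.27 (SE, adjusted p = 5.11e-09). It was also lower in sorted tumors than in sorted hyperplasia, by -1.24 ± 0.34 (SE, adjusted p = 0.0252), a call lost without hyperplasia replicate 3 (0.222). Rspo2 was higher in tumor than in gland, at 0.63 ± 0.15 (SE, adjusted p = 0.000490).

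Of 18 receptors 7 were higher and 5 lower than in gland, where 29.4% of all genes were called higher and 21.5% lower. Fzd7 rose from 7.83 ± 0.52 (SD, n = 5) to 9.25 ± 0.55 (SD, n = 22), a difference of 1.49 ± 0.30 (SE, adjusted p = 5.08e-05). The groups did not overlap, and how many of all genes share this was not counted. Fzd2 rose by 1.24 and Ryk by 0.92; the Ryk call was lost without gland replicate 4 (adjusted p = 0.0918). Fzd10 fell by 1.23, Fzd4 by 1.21 and Ror1 by 1.18. Fzd4, also a receptor of Norrin in blood vessels, did not overlap between tumor and gland, and all 6 endothelial markers were lower in tumor; their part in the Fzd4 difference was not tested.

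Of 10 secreted inhibitors 1 was higher and 3 were lower, against 29.4% and 21.5% of all genes. Sfrp2 fell by 2.35, Sfrp5 by 1.17 and Sfrp4 by 0.94. Sfrp2 and Sfrp4 are made by fibroblasts, and all 8 measured fibroblast markers were lower in tumor; their part was not tested. Wif1, a secreted protein that binds Wnt ligands, rose by 2.30 ± 0.98 (SE, adjusted p = 0.0467), with levels of 7.75 ± 1.94 (SD, n = 22) against 5.46 ± 0.50 (SD, n = 5). That call did not survive the loss of any 1 gland, with adjusted p from 0.0558 to 0.0978.

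Of 8 cytoplasmic genes only Dvl2 was called, at 0.55 and near the floor, and it was not called with a floor of 100. Ctnnb1, which encodes beta-catenin, differed by 0.25 ± 0.14 (SE, adjusted p = 0.126). Of 10 nuclear partners 5 were higher and 3 lower, against 29.4% and 21.5% of all genes. Ctnnbip1, which blocks binding of beta-catenin to Tcf factors, rose by 1.69 ± 0.16 (SE, adjusted p = 1.19e-11), with no overlap. Tle1 and Tle4, co-repressors that bind Tcf factors, fell by 1.97 and 0.98, and Bcl9 and Tle2 rose by 0.97 and 0.89. Tcf7l1 fell by 0.87, a call lost in 8 of 13 alternative settings.

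Other targets split as well, with 4 of 11 higher and 3 lower, against 29.4% and 21.5% of all genes. Nkd2, Rnf43 and Nkd1, all feedback inhibitors, rose by 1.61, 1.05 and 0.73. Znrf3 and Notum, which also limit the pathway, were not called, at 0.38 and 0.25. Myc fell by 0.92 (SE 0.23, adjusted p = 0.000962), Lgr5 by 0.85 and Ccn4 by 0.74. The Lgr5 call was lost on the mean of its probe sets (adjusted p = 0.0703), the Rnf43 call with a floor of 100 (0.511) and the Ccn4 call without gland replicate 1, 3 or 4. Ccnd1, the cyclin D1 gene, was not called, at 0.80 ± 0.39 (SE, adjusted p = 0.0853).

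**Figure D5:**
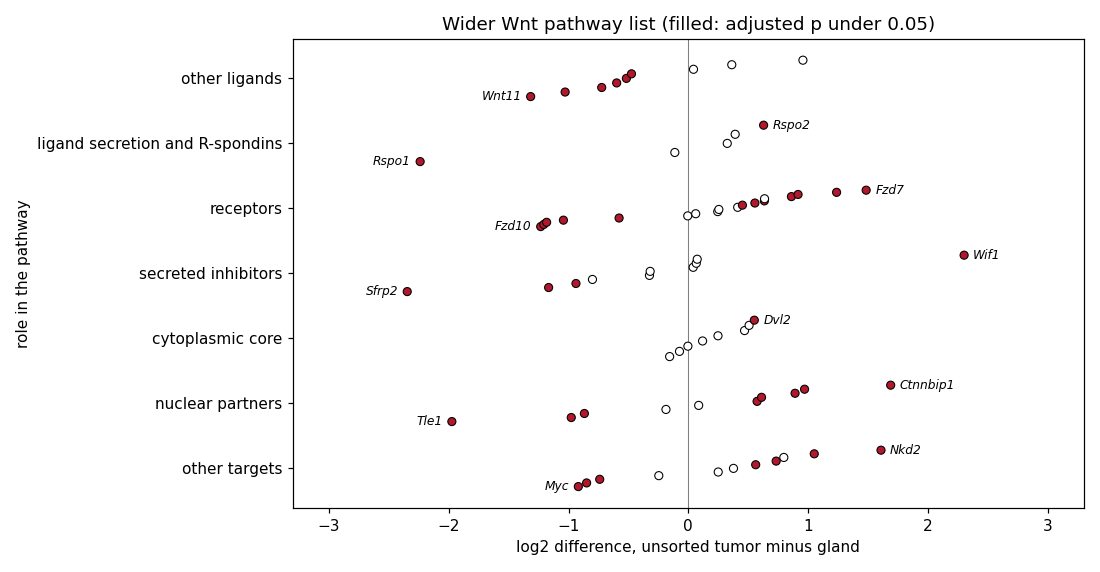
Log2 differences of unsorted tumor minus gland (x axis) for the 71 measured genes of the wider pathway list, by role (y axis). Filled points had an adjusted p under 0.05, and the lowest and highest called gene of each role is named; the 6 called ligands of this list lie below 0, while receptors lie on both sides, from Fzd10 at -1.23 to Fzd7 at 1.49.

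The same list was read in the other comparisons. Between sorted tumors and sorted hyperplasia 5 of 71 were called, where 3.78% of all genes were: Fzd7 (1.26), Lgr4 (1.39) and Kremen1 (0.77) higher and Rspo1 and Tle4 (-0.88) lower. The calls of Fzd7, Lgr4, Kremen1 and Tle4 were each lost without hyperplasia replicate 1 and without replicate 2, which carried the bright spike-in signal. Of the B and plasma cell markers 5 of 5, of the T cell markers 4 of 5 and of the fibroblast markers 3 of 8 were called lower in sorted tumors than in sorted hyperplasia. So were 2 of 6 endothelial, 1 of 6 macrophage, 1 of 4 adipocyte, 1 of 9 basal and 1 of 5 hormone-sensing genes. The part of these cell types in these differences was not tested. In sorted against unsorted tumors 13 of 71 were called, where 25.3% of all genes were, 4 higher, led by Tle1 (1.36), and 9 lower, led by Ctnnbip1 (-0.82), Tcf7l2 (-0.78) and Fzd7 (-0.77). This comparison and that with gland share the unsorted tumors, in which Tle1 had a mean of 7.28 and Ctnnbip1 of 8.60, against 8.61 and 7.84 in sorted tumors and 9.31 and 6.93 in gland. In transplants none was called by limma among sorted samples, and only Kremen1, an inhibitor that acts with Dkk proteins, was called among unsorted ones, at 0.87 ± 0.20 (SE, adjusted p = 0.0178). That call was lost without transplant replicate 1 or 2, with adjusted p of 0.0993 and 0.0830.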

How the data were processed

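The authors deposited linear intensities, 1 value per probe set and array, from biotin-labelled RNA per the labels' protocols; the sources used here do not give their summary and scaling methods, and that scaling was kept. Of 45101 probe sets, 64 controls and 1 with extreme values were left out, and 34944 had a single symbol. Intensities under 32 were set to 32 (37.4% of values) before log2. Each gene was represented by its probe set with the highest mean, and 15150 of 18192 genes were tested, those whose value exceeded the 40th percentile of an array in 4 or more arrays. All 6 groups, 50 replicates, were fitted in limma 3.58.1 under R 4.3.3 (lmFit, eBayes), with mouse as a random block (consensus correlation 0.358), so a fitted difference can depart from a difference of means. Benjamini-Hochberg adjustment was used, and the fit was tested on simulated data. Tumors of 1 mouse, and passages of 1 tumor, count as separate replicates within the block.

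The members and lists were chosen with earlier results of these data known. All members are named; of each role of the pathway list, up to 3 called genes per direction with the largest differences are named, together with Wnt2, Wnt10b, Rspo1, Fzd4, Lgr5, Ctnnb1, Ccnd1 and Myc. Besides these, Znrf3 and Notum were added after their values were seen, as were the correlations between members. Marker lists were luminal epithelium, basal and myoepithelial, hormone-sensing luminal, fibroblast, adipocyte, endothelial, T cell, B and plasma cell, and macrophage. Between unsorted tumor and gland, 2 of 6 luminal genes were higher, against 29.4% of all genes. Lower were 5 of 9 basal, 1 of 4 adipocyte, 1 of 5 T cell, 4 of 5 B and plasma cell and 3 of 6 macrophage genes, against 21.5% of all genes. Alternatives were other floors, quantile normalization, the mean of a gene's probe sets, no filter, no block, the compared groups alone, an intensity trend, a spike-in covariate, subsets by Gapdh ratio, and leaving out replicates.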

Additional observations from a re-analysis of the deposited data

Results flagged for a closer look

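Over 45 sets of a gene in a group, 2 held a sample that stood far apart from the rest of its group; such a gap arises by chance in about 1 in 20 sets. Axin2 was lowest in gland replicate 4, at 6.25, with the next gland at 7.44. This is the array with the largest Actb 3′ to 5′ difference, 2.18, and the part of that in the value was not tested. Without this gland the Axin2 difference between unsorted tumor and gland was 0.39 (adjusted p = 0.304). Sfrp1 was lowest in hyperplasia replicate 3, at 7.75, with the next at 8.35.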

How the results depend on the processing

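Causes were not tested except where fewer samples or genes were fitted. Of the members, 3 called between unsorted tumor and gland became 1 with a floor of 100, and 0 called between unsorted transplants and tumors became 1 with a floor of 100 and 1 without the mouse block. Genes called between sorted tumor and hyperplasia, 573, became 887 without the mouse block, 13 with the 2 groups alone, 84 without hyperplasia replicates 1 and 2, 173 with the spike-in covariate, 180 in arrays with a Gapdh ratio over -0.1, and 157 to 946 when 1 hyperplasia replicate was left out. Genes called between sorted transplant and tumor, 0, became 2 with quantile normalization, 2 with a Gapdh ratio under -0.1 and 7 over it. Genes called between unsorted transplant and tumor, 143, became 261 with a floor of 100, 822 without the block, 243 with the 2 groups alone and 66 to 162 when 1 transplant was left out.

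Estimates that turned sign were all uncalled under the alternative. Unsorted tumor against gland: Sfrp1 was -0.0723 with quantile normalization, -0.0359 without the block, -0.0896 with the 2 groups alone and -0.0579 to 0.0649 when 1 gland was left out (below 0 without replicate 3 or 5), and Ccn4 was 0.0289 with a floor of 100. Sorted tumor against hyperplasia: Axin2 was 0.24 without hyperplasia replicates 1 and 2, 0.20 with the spike-in covariate and 0.0202 with a Gapdh ratio under -0.1; Lef1 was -0.0451 to 0.0807 when 1 hyperplasia was left out (below 0 without replicate 4) and -0.13 with a Gapdh ratio over -0.1; Wnt5b was -0.0724 without replicates 1 and 2; Wnt6 was -0.0125 with a Gapdh ratio over -0.1; Wnt7b was -0.0271 to 0.386 when 1 hyperplasia was left out (below 0 without replicate 3), -0.16 with the covariate and -0.0251 with a Gapdh ratio under -0.1. Sorted against unsorted tumor: Axin2 was -0.0015 with a floor of 16, -0.0994 without the block and -0.0015 with the 2 groups alone; Lef1 was 0.0445 with a floor of 100, 0.15 on the mean of probe sets and 0.0171 with the 2 groups alone; Wnt4 was -0.0014 with a floor of 100. Sorted transplant against tumor: Axin2 was 0.18 with a Gapdh ratio over -0.1; Sfrp1 was -0.43 without the block and -0.60 with a Gapdh ratio over -0.1; Wnt4 was 0.21, 0.016 and 0.56 without the block, with the 2 groups alone and with a Gapdh ratio over -0.1; Wnt5b was 0.0075 without the block, 0.0954 with the 2 groups alone and 0.76 with a Gapdh ratio under -0.1; Wnt6 was -0.17 with a Gapdh ratio under -0.1. Unsorted transplant against tumor: Wnt4 was 0.0557 with a floor of 16 and -0.315 to 0.0732 when 1 transplant was left out (above 0 without replicate 2).

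No paired analysis was possible by replicate number, because those in the labels name only the 2 arrays of 1 tumor; the titles do tie tumors and transplants by mouse, which was the block in the fit. Dim genes such as Lef1 lie near the floor, where differences are compressed.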

Other observations

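In 3 primary tumors the highest Axin2 levels went with the lowest Wnt5b levels, a pattern chosen after the values were seen and given with no test. Over the 30 primary tumors, sorted and unsorted, the 3 highest Axin2 levels were 9.70 in C117T6 (unsorted), 8.96 in a sorted tumor of mouse F405 and 8.92 in a sorted tumor of mouse G294. These had the 3 lowest levels of Wnt5b, at 5.54, 6.56 and 6.90, and all 3 were at the floor on the dimmer Wnt5b probe set. The tumor with the next highest Axin2, 8.68 from mouse D254, had a Wnt5b level of 9.68, the 7th highest, so it did not share the pattern. At the other end, the sorted tumor of mouse G421 had the highest Wnt5b, 10.09, and the 3rd lowest Axin2, 7.28. The next highest Wnt5b, 9.97 in another tumor of mouse D254, went with the 11th highest Axin2, 8.09. Over the 14 mice with unsorted tumors, Wnt5b and Axin2 gave r = 0.142 and rho = 0.134 (permutation p = 0.630 and 0.649; 0.816 and 0.794 adjusted over 63 relations), and r = 0.031 without the 2 farthest mice.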
